A study of Zea mays with 6 samples.

Results

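The EBE genes and the di-SUMO-like gene of maize (Zea mays) were followed as 4 listed transcript models of 3 genes, out of 42007 models of 31057 genes with a read in any library. They are both models of EBE-2 (GRMZM2G167733_T01 and GRMZM2G167733_T02), the other EBE protein (GRMZM2G129157_T01) and the di-SUMO-like protein (GRMZM2G006324_T01), found by their identifiers, and all 4 were listed. In a RefSeq gene table GRMZM2G129157 carries the synonym EBE-1, GRMZM2G167733 the synonym EBE-2 and GRMZM2G006324 the synonym DSUL. The number 1 of EBE-1 rests on that table alone, since the deposited description of GRMZM2G129157_T01 spells out the protein's name without a number and is shared with a model of another gene, GRMZM2G087766_T01.

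Transcripts were counted by RNA-seq in inbred line Q319, with 2 libraries for each of 3 tissues. The tissues were unpollinated embryo sacs, embryo sacs collected 14 to 16 h after pollination, and the nucellus. Embryo sacs and nucellus were both freed from ovule slices by enzyme treatment, and poly(A) RNA was sequenced. The labels call the libraries of a tissue biological replicates and do not say how many ovules or plants went into one. An embryo sac library pools every cell type of the female gametophyte, so a lower level in it can be fewer cells of a type or less RNA per cell, and these cannot be told apart.

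The embryo sac is the haploid female gametophyte of the ovule, made of the egg cell, synergids, central cell and antipodal cells, and the nucellus is the maternal tissue that surrounds it. The EBE genes are named after the embryo sac, the basal endosperm transfer layer and the embryo surrounding region, the places where their transcripts were first described. The last of these are parts of the endosperm, which grows from the fertilised central cell. SUMO is a small ubiquitin-like protein that is attached to other proteins by a cascade of activating, conjugating and ligating enzymes and removed by proteases of the Ulp1 type. The di-SUMO-like protein carries a pair of SUMO-like domains, and in maize it is known to be needed for the placing of nuclei and for cell identity while the embryo sac matures.

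Libraries held 2.54 M to 3.26 M unique reads (M for 1e6), which sets the precision of the low counts. Descriptions of embryo sac genes, the 4 models included, matched 12 models, with a summed level of 3092 to 3212 CPM in embryo sac, 3152 to 3276 CPM in pollinated embryo sac and 20.3 to 22 CPM in nucellus. EBE-2 and EBE-1 models alone stood at 1335 and 703 CPM in the first embryo sac library. The sum is thus largely the members' own level and no separate check of the tissues. A LOB domain-containing protein 6 model (GRMZM2G118250_T06) went the other way on few reads. It had 1 and 4 reads in nucellus, 0 and 1 in embryo sac and 0 and 0 after pollination. CPM is the count scaled to library size, per the TMM method. Of 3 nucellus and ovule wall models, the bearded-ear1 model GRMZM2G160565_T01 had no read in embryo sac, 2 and 0 reads after pollination, and 207 and 287 reads in nucellus. The MADS16 model GRMZM2G110153_T01 was present in every library, with 507 and 528 reads in nucellus, 82 and 79 in embryo sac, and 74 and 96 after pollination. The 3 models summed to 163 to 175 CPM in nucellus, 28.8 to 29.7 CPM in embryo sac and 38.1 to 46.5 CPM after pollination, and the part of nucellus RNA in the embryo sac libraries was not tested. The summed level of 43 models with pollen descriptions was 83.1 to 93 CPM in embryo sac, 117 to 133 CPM after pollination and 91.7 to 112 CPM in nucellus. The defining pollen allergen Zea m 1 (GRMZM2G089699_T01) was at 0 in embryo sac and nucellus and had 4 and 3 reads after pollination. A profilin-4 model (GRMZM2G108780_T01), also read in nucellus, went from 27.4 and 23.7 CPM to 53.6 and 69.2 CPM, and without it the pollen sum was 55.8 and 69.3 CPM before and 63.6 and 63.9 CPM after pollination. Another model of the same profilin-4 gene, GRMZM2G108780_T04, fell from 3.86 and 7.53 CPM to 1 and 0.968 CPM. Like Zea m 1, exopolygalacturonase models GRMZM2G320175_T01 and GRMZM2G418644_T01 were at 0 in embryo sac and nucellus. After pollination the former had 2 and 4 reads and the latter 1 and 5. Pollen allergen model GRMZM2G148064_T01 went the other way, from 16 and 7 reads to 2 and 2. The part of pollen RNA in the results was not tested.

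EBE-2 was the most abundant of the 3 genes in both kinds of embryo sac. Its model GRMZM2G167733_T02 stood at 1335 and 1405 CPM in the embryo sac libraries, at 1098 and 993 CPM after pollination, and at 0.453 and 0 CPM in nucellus. All 4 embryo sac libraries lay far above both nucellus libraries, and the pollinated libraries lay below the unpollinated ones. The model ranked 52 and 44 by RPKM, the reads scaled to model length and to library size, among the 31193 and 30963 models listed in embryo sac. After pollination it ranked 91 and 105.

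EBE-1 (GRMZM2G129157_T01) stood at 703 and 666 CPM in embryo sac, 762 and 757 CPM after pollination, and 13.1 and 13.9 CPM in nucellus. It was the one member with more than a few reads in nucellus, 58 and 65 reads, against 2003 and 1769 reads in embryo sac. Its pollinated libraries lay slightly above its unpollinated ones with TMM scaling, and with scaling to library totals they overlapped, at 615 and 585 CPM before and 599 and 583 CPM after pollination.

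The di-SUMO-like model (GRMZM2G006324_T01) stood at 65.6 and 56.8 CPM in embryo sac and at 35.1 and 36.8 CPM after pollination, with no read in either nucellus library. The other EBE-2 model, GRMZM2G167733_T01, was the lowest of the 4, at 14.4 and 10.5 CPM in embryo sac and 3.01 and 3.87 CPM after pollination, with no read in nucellus. Both stood at lower levels after pollination, and both drew few reads. The lesser EBE-2 model rested on 41 and 28 reads in embryo sac and on 6 and 8 reads after pollination.

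A further model, GRMZM2G087766_T01 of another gene, carries the description of EBE-1 and is taken here as a relative by description alone, chosen after its values were seen. It stood at 269 and 241 CPM in embryo sac and at 501 and 444 CPM after pollination, with no read in nucellus. Both of its pollinated libraries lay above both unpollinated ones by more than the spread within either tissue.

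**Figure D1:**
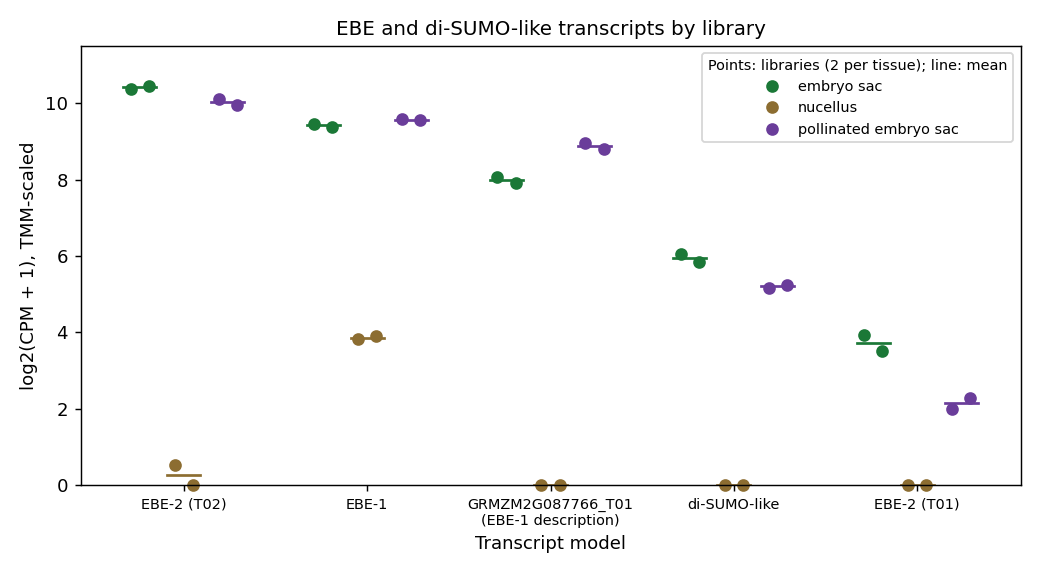
Level of each transcript model in each of the 6 libraries, as log2(CPM + 1) with TMM scaling on the vertical axis; points are libraries, 2 per tissue, and short lines are tissue means. EBE-1 is the member with a clear nucellus level, 13.1 and 13.9 CPM, and GRMZM2G087766_T01 is the model whose pollinated libraries, at 501 and 444 CPM, lie well above the unpollinated ones.

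Per whole model length, the order of the models differed between tissues. In embryo sac the RPKM was 1099 and 1163 for EBE-2 (GRMZM2G167733_T02), 215 and 204 for EBE-1, 209 and 188 for GRMZM2G087766_T01, 64 and 55.7 for the di-SUMO-like model and 12.5 and 9.19 for the lesser EBE-2 model. EBE-1 and GRMZM2G087766_T01 overlapped there, and the other neighbours in this order were separated by more than the spread of their libraries. After pollination GRMZM2G087766_T01 stood next, at 349 and 304 RPKM, and EBE-1 below it, at 209 and 204 RPKM, without overlap. The order of EBE-1 and GRMZM2G087766_T01 depends on the length used, as given below for the covered bases. EBE-2 stayed first at 812 and 721 RPKM, the di-SUMO-like model was at 30.7 and 31.6 RPKM, and the lesser EBE-2 model at 2.34 and 2.96 RPKM. In nucellus EBE-1 led with 6.74 and 7.1 RPKM, EBE-2 (GRMZM2G167733_T02) had 0.627 and 0 RPKM, and the remaining models had no read.

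These levels are spread over very different stretches of the models. The deposited tables give the share of each model's length that reads covered. Reads on EBE-2 (GRMZM2G167733_T02) covered 13.37% of its 1062 bases in both embryo sac libraries and in the first pollinated library, and 13.47% in the other. That is 142 or 143 bases, so 3805 reads lay on 142 bases in the first embryo sac library. The covered stretch stayed the same length while the reads went from 3805 and 3733 to 2191 and 2052. The lesser EBE-2 model had 92 of its 1008 bases covered in both embryo sac libraries, and 85 and 62 bases after pollination.

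Such a narrow stretch was rare at this depth. Among all 397 models with at least 1000 reads in the first embryo sac library, GRMZM2G167733_T02 had the lowest coverage, the next lowest was 24.35% and the median was 90.2%. It was also the lowest of 356 models in the other embryo sac library and of 360 and 382 models in the pollinated libraries. Genes with 2 or more listed models, such as EBE-2, had a median coverage of 57.5% at this depth in the first embryo sac library, against 91.2% for genes with 1 listed model. Only unique reads were counted, and the files do not say whether a read shared by both EBE-2 models counts as unique. The RPKM of EBE-2 divides by the whole model length, and over the covered bases alone it would be 8221 and 8699 in embryo sac and 6073 and 5354 after pollination.

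The single-model genes were covered over more of their length. The di-SUMO-like model, 897 bases long, was covered over 98.10% and 97.66% in embryo sac and 92.75% and 84.17% after pollination. Other models with reads and length within 25% of its own had medians of 80.7% and 79.7% in embryo sac. EBE-1, 2863 bases long, was covered over 75.13% and 71.01% in embryo sac and over 64.97% and 56.55% after pollination, while models of similar reads and length had medians of 91.2% to 92.1% in these 4 libraries. In nucellus its 58 and 65 reads covered 19.59% and 22.35% of the length, against medians of 41% and 42.6% for similar models. GRMZM2G087766_T01, 1127 bases long, was covered over 94.14% to 95.92% in all 4 embryo sac libraries. Over the covered bases alone, the RPKM in embryo sac would be 286 and 288 for EBE-1 and 222 and 196 for GRMZM2G087766_T01. After pollination it would be 322 and 360 for EBE-1 and 370 and 320 for GRMZM2G087766_T01, with overlap.

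**Figure D2:**
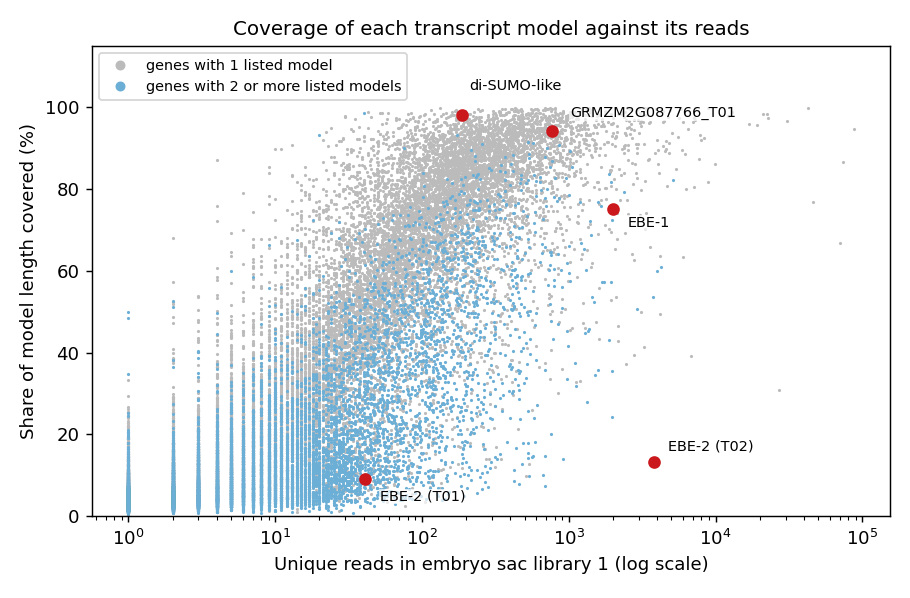
Share of the model length covered (percent) against unique reads (log scale) in embryo sac library 1; each small point is a transcript model, grey for genes with 1 listed model and blue for genes with 2 or more, and red points are the EBE and di-SUMO-like models. EBE-2 (T02) stands apart at 3805 reads and 13.37% coverage.

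The embryo sac was compared with the nucellus to ask how far these transcripts belong to the gametophyte. All 4 members were higher in embryo sac, in a comparison where 23.2% of the 18844 tested models were called higher by edgeR's quasi-likelihood test. Apart from EBE-1, the members passed the filter on low counts through their embryo sac reads alone, so that their count lends no support of its own. A call needed a Benjamini-Hochberg adjusted p under 0.05 and a log2 change of at least 1. EBE-1 was higher by 5.66 ± 0.15 (SE) on the log2 scale, with an edgeR adjusted p of 2.7e-81, and both embryo sac libraries lay above both nucellus libraries. With scaling to library totals the value was 4.92, and the median of all tested models then moved from -0.00 to -0.74. Its nucellus level was 1.98% of its embryo sac level with TMM scaling. EBE-2 (GRMZM2G167733_T02) had 7538 unpollinated embryo sac reads and 2 nucellus reads, so its nucellus level was 0.0165% of the embryo sac level with TMM scaling. That share rests on reads of 1 nucellus library, and counting error alone allows 0.00195% to 0.0581%. The fitted log2 change of this model was 12.36 with TMM and 11.69 with library totals.

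A model without a read in nucellus can still be expressed there below a limit of 3 reads per library, 0.679 CPM in the shallower one. This limit allows the nucellus up to 1.11% of the embryo sac level for the di-SUMO-like model, up to 0.266% for GRMZM2G087766_T01 and up to 5.45% for the lesser EBE-2 model. With scaling to library totals the limits are 1.86%, 0.446% and 9.14%. The nucellus share of EBE-1, at 1.98%, lies above the first and the second of these limits. Within a library, EBE-2 (GRMZM2G167733_T02) had 1.9 and 2.11 reads for each EBE-1 read in embryo sac, and 0.0345 and 0 in nucellus. These ratios do not depend on how libraries are scaled, and limits, bounds and intervals cover counting error only, since reads copied by PCR are not independent molecules.

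Pollinated embryo sacs were also compared with the nucellus. All 4 members were higher in pollinated embryo sac, in a comparison where 27.3% of tested models were called higher. Apart from EBE-1, the members passed the filter on low counts through embryo sac reads alone. Their count therefore lends no support of its own. With the unpollinated libraries left out, the lesser EBE-2 model did not pass that filter. EBE-2 (GRMZM2G167733_T02) was 4750 times as high after pollination as in nucellus with TMM scaling, and counting error alone allows 1314 to 39235 times. Its fitted log2 change was 11.97 with TMM and 11.12 with library totals. EBE-1 was higher by 5.81 ± 0.15 on the log2 scale (edgeR adjusted p of 8.22e-83), and by 4.89 with library totals, where the median of all tested models moved from -0.06 to -0.97. The di-SUMO-like model was at least 52.9-fold higher, the lesser EBE-2 model at least 5.06-fold and GRMZM2G087766_T01 at least 695-fold with TMM scaling. With library totals these bounds are 28-fold, 2.68-fold and 368-fold. The nucellus libraries are the same in both comparisons, so the sets of calls are not independent.

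Both kinds of embryo sac were set against each other to ask what happens to these transcripts by 14 to 16 h after pollination. One of the 4 members was called, the lesser EBE-2 model, which fell by 1.85 ± 0.44 on the log2 scale (edgeR adjusted p of 0.000189, 95% interval -2.72 to -0.98), in a comparison where 19.3% of tested models were called lower and 32.3% in either direction. EBE-2 (GRMZM2G167733_T02), at -0.39 ± 0.10, and the di-SUMO-like model, at -0.77 ± 0.19, had edgeR adjusted p-values of 0.000767 and 0.00028. Both stood under the fold threshold, and 51.6% of all tested models had an adjusted p under 0.05 at any fold. The 95% interval of the di-SUMO-like change ran from -1.14 to -0.40 and so reached past the threshold.

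EBE-1 stood at 0.15 ± 0.10, with a 95% interval of -0.05 to 0.35 and an edgeR adjusted p of 0.222. The value was -0.02 with scaling to library totals. The interval leaves room for a change of up to 0.35 on the log2 scale. GRMZM2G087766_T01 stood at 0.89 ± 0.11 (95% interval 0.67 to 1.10, edgeR adjusted p of 1.95e-12), also under the fold threshold, and at 0.72 with scaling to library totals. Over all tested models the median change was -0.08 with TMM and -0.25 with library totals on the log2 scale, so each value moves by about as much with the scaling.

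**Figure D3:**
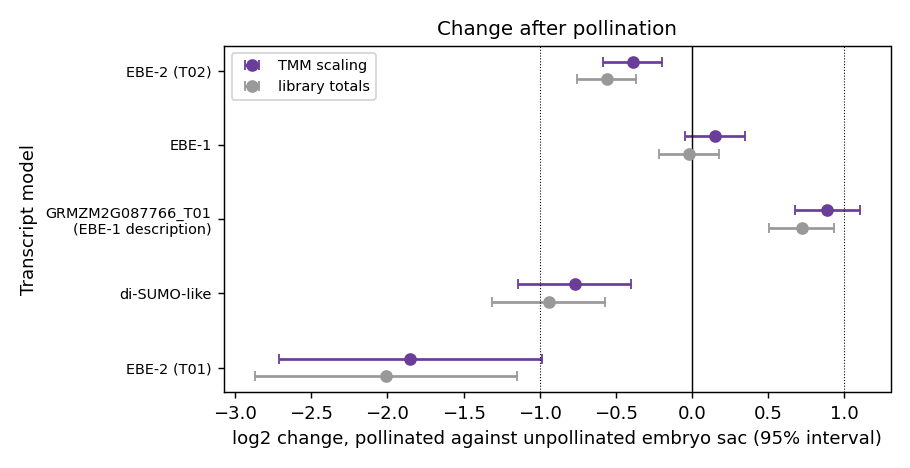
Log2 change in pollinated against unpollinated embryo sac for each model (edgeR), with 95% intervals as bars, under TMM scaling (purple) and scaling to library totals (grey); dotted lines mark the fold threshold at -1 and 1. EBE-1 spans 0 under both scalings, while GRMZM2G087766_T01 stands at 0.89 and 0.72.

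Ratios of reads within a library put the genes side by side without scaling. EBE-2 (GRMZM2G167733_T02) had 1.9 and 2.11 reads for each EBE-1 read before pollination, and 1.44 and 1.31 after. The di-SUMO-like model had 0.0934 and 0.0854 reads for each EBE-1 read before, and 0.046 and 0.0486 after, a difference in mean log2 ratio of -0.92. GRMZM2G087766_T01 had 0.383 and 0.361 reads for each EBE-1 read before, and 0.657 and 0.587 after, a difference of 0.74. The difference was -0.54 for EBE-2 against EBE-1. The di-SUMO-like model had 0.0491 and 0.0405 reads for each EBE-2 read before, and 0.0319 and 0.037 after, a difference of -0.37. In each of these ratios the tissues did not overlap, but with 2 libraries a tissue a 2-sided exact permutation test cannot go below the p of 0.333 that all of them gave.

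The share of the lesser model in the reads of the EBE-2 gene was also compared. It was 1.07% (95% exact binomial interval 0.766 to 1.44) and 0.744% (0.495 to 1.07) in embryo sac, and 0.273% (0.1 to 0.593) and 0.388% (0.168 to 0.764) after pollination. The tissue values did not overlap, although the intervals of the second embryo sac library and both pollinated libraries did. A test of each model against the rest of its gene (edgeR diffSpliceDGE, over 2179 models of 1036 genes) gave GRMZM2G167733_T01 a relative log2 change of -1.45 with an adjusted p of 0.015, where 11.2% of models passed. The call was lost on leaving out the first embryo sac library (-1.17, adjusted p = 0.221), the first pollinated library (-1.21, adjusted p = 0.321) or the second pollinated library (-1.71, adjusted p = 0.102), and with no filter on low counts (-1.45, adjusted p = 0.217). Reads summed over both models gave the EBE-2 gene 1349 and 1416 CPM before and 1101 and 997 CPM after pollination, a log2 change of -0.39 ± 0.10. Since nearly all of these reads belong to GRMZM2G167733_T02, the sum gives that model's change and says nothing of the lesser one. Shares and sum alike describe the covered stretches, 142 or 143 bases of GRMZM2G167733_T02 and 62 to 92 bases of the lesser model, and not whole transcripts.

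**Figure D4:**
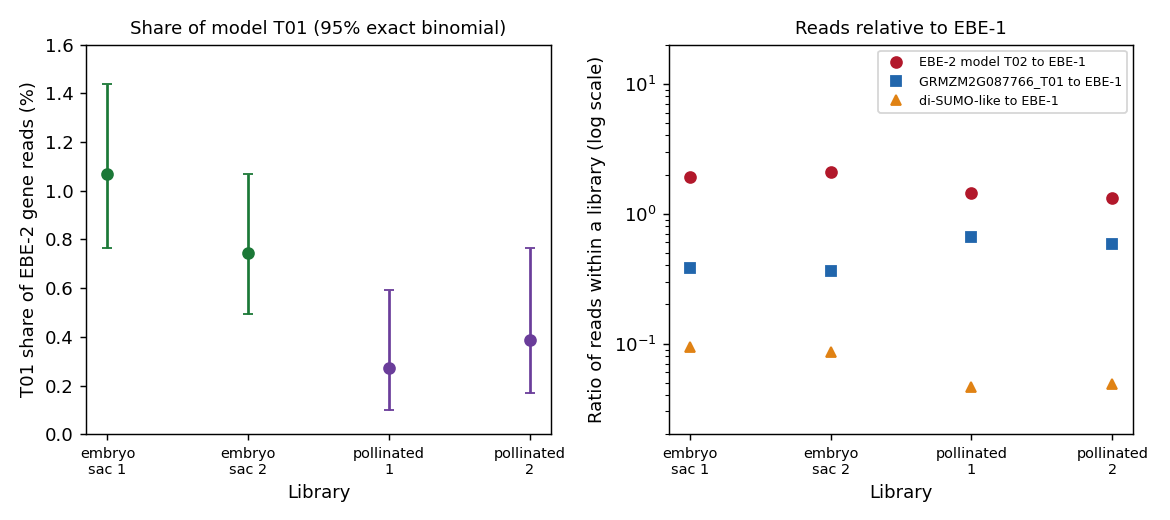
Left, share of model T01 in the reads of the EBE-2 gene (percent) in the 4 embryo sac libraries, with 95% exact binomial intervals as bars; right, reads of EBE-2 (T02), GRMZM2G087766_T01 and di-SUMO-like relative to EBE-1 reads in the same library (log scale). The T01 share lies at 1.07% and 0.744% before and 0.273% and 0.388% after pollination.

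The other genes that matched the SUMO search terms, unlike the di-SUMO-like gene, all had reads in nucellus. None of them was described as an activating or conjugating enzyme of the cascade. The SUMO search terms matched 9 models of 7 genes, 8 of them besides the di-SUMO-like one, and 4 of these 8 passed the filter on low counts. None of the 4 was called higher in embryo sac than in nucellus and 1 was called lower, where 16.3% of tested models were, with a median log2 change of 0.20. A SUMO1b model (GRMZM2G082390_T01), which encodes the modifier itself, had 13 and 23 reads in nucellus, 20 and 14 in embryo sac and 16 and 20 after pollination. It was called higher in pollinated embryo sac than in nucellus, at 8.02 and 9.68 against 2.94 and 4.92 CPM, a log2 change of 1.16 ± 0.40 (edgeR adjusted p of 0.0067), where 27.3% of tested models were. Models GRMZM2G082390_T02 and GRMZM2G082390_T03 of the same gene went the other way and did not pass the filter. The former had 4 and 8 reads in nucellus and 0 and 0 after pollination. The latter had 9 and 13 reads in nucellus and 3 and 1 after pollination. The call is therefore of a single model and not of the gene. The SUMO ligase model GRMZM2G455664_T01, described as SIZ1-like, had 144 and 174 reads in nucellus, 68 and 105 in embryo sac and 57 in each pollinated library. Its log2 change was -0.15 ± 0.19 for embryo sac against nucellus and -0.17 ± 0.22 after pollination.

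The called one was a putative Ulp1 protease (GRMZM2G174667_T01), of the family that removes SUMO from proteins. Nucellus held 329 and 326 of its reads, embryo sac 87 and 96, and pollinated embryo sac 33 and 31. It was lower in embryo sac than in nucellus at -1.11 ± 0.16 (edgeR adjusted p of 5.79e-10) and fell by a further 1.08 ± 0.23 after pollination (edgeR adjusted p of 2.17e-05). It alone of the 4 was called after pollination, 1 of 4 beside a background of 19.3% called lower, and the median of the 4 was -0.58 beside -0.08 for all tested models. Without the di-SUMO-like model, the other 8 summed to 119 and 122 CPM in nucellus, 69.1 and 90 CPM in embryo sac and 61.1 and 56.2 CPM after pollination.

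Genes of the seed tissues after which the EBE genes are named were numerous in embryo sac. The terms for transfer tissue and embryo surrounding region matched 15 models besides the EBE members, most of them described as ae1 protein precursor, and 12 passed the filter. All 12 had at most 2 reads in a nucellus library, so they passed through their reads in embryo sacs, and that they were called higher there than in nucellus follows from the filter and lends no support. After pollination 3 of the 12 were called lower and none higher (19.3% and 13% of all tested models), with a median of -0.36. The smallest p among them was that of the MEG1 model (GRMZM2G145466_T01), a gene of the basal transfer layer, which had no read in nucellus. It went from 835 and 752 CPM to 177 and 137 CPM, a log2 change of -2.34 ± 0.12 (edgeR adjusted p of 1.24e-41). GRMZM2G112855_T01 stood at -1.98 ± 0.13 (edgeR adjusted p of 4.48e-27). The most abundant ae1 model (GRMZM2G038024_T01), the least reduced of the 3, had 1 and 2 reads in nucellus, 3299 and 2861 in embryo sac and 980 and 897 after pollination, and fell by 1.27 ± 0.11 (edgeR adjusted p of 2.37e-22). GRMZM2G087766_T01 is also among the 12. It had the smallest p of those that rose, at 0.89 ± 0.11 (edgeR adjusted p of 1.95e-12), under the fold threshold. The models described as embryo surrounding region 1 and 6 precursors (GRMZM2G046086_T01 and GRMZM2G048353_T01), which are endosperm peptides, had 1 read and 3 reads in embryo sac and none after pollination.

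The models nearest in pattern were found by the root mean square difference of log2(CPM + 1) over the 6 libraries, after subtracting each model's mean. The nearest model to di-SUMO-like was GRMZM5G853066_T01, described as AGL80-like, a MADS-box factor that in Arabidopsis is needed in the central cell. Its difference was 0.087, against a median of 2.705 over all tested models, with 68.7 and 61.7 CPM in embryo sac, 42.1 and 39.2 CPM after pollination and no read in nucellus. A nuclease PA3 model (GRMZM2G041352_T01) was next but one, at 0.125. Unlike di-SUMO-like, it was read in nucellus, at 4.3 and 5.35 CPM.

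The nearest model to EBE-1 was GRMZM2G153359_T01, with no informative description, at a difference of 0.072 (median 2.714). It stood at 251 and 237 CPM in embryo sac, 4.53 and 4.06 CPM in nucellus and 282 and 294 CPM after pollination. The nearest described one was a late embryogenesis abundant protein Lea14-A (GRMZM2G050607_T01), at 0.093, with 47.7 and 52 CPM in embryo sac, 58.6 and 51.3 CPM after pollination and no read in nucellus.

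The nearest model to EBE-2 (GRMZM2G167733_T02) was GRMZM2G001827_T01, at a difference of 0.286 (median 4.742). That model stood at 2393 and 1873 CPM in embryo sac, 1846 and 1312 CPM after pollination and 0.453 and 0.641 CPM in nucellus. The nearest described one was a cysteine proteinase inhibitor 8-like model (GRMZM2G041317_T01), at 0.382. The lesser EBE-2 model was nearest to GRMZM2G087824_T01, at 0.114, and next to a glucan endo-1,3-beta-glucosidase precursor (GRMZM2G088951_T01), an enzyme that cleaves callose-type glucans, at 0.144 (median 1.637). That glucosidase model had 2.72 and 3.63 CPM in nucellus, where the lesser EBE-2 model had no read. Adding 1 CPM before the log shrinks differences between low levels, so nearness does not mean a shared absence from nucellus.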

How the data were processed

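Per the file headers, each deposited table gives counts of unique reads per transcript model, the model length, the percent of it covered, and RPKM. Models without a read are not listed and were taken as 0. RPKM recomputed from the authors' counts and header totals differed by at most a relative 1.39e-08. Neither labels nor headers name an aligner, a genome build or a counting tool.

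Counts of all 6 libraries were fitted in edgeR 4.0.16 (R 4.3.3; filterByExpr, TMM, robust quasi-likelihood), with p-values adjusted over all 18844 models passing the filter and the 3 tissues sharing one spread. The SE is the log2 change divided by the root of F, and 95% intervals are 1.96 SE. DESeq2 1.42.0 and limma 3.58.1 (on log2 of RPKM plus 1 or 0.1, mostly for models with an RPKM of at least 1 in 2 libraries) were alternatives. Shares used exact binomial intervals (scipy 1.17.1). Scripts were tested on simulated data.

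Members and lists were chosen with earlier results of these data known. Besides the members, models were named by search terms in the descriptions (smallest p in each direction) and by nearness in pattern, the 4 nearest of each member. Models singled out beyond this were chosen after their values were seen. A planned search for relatives by protein sequence was not run, and descriptions were used in its place. The RefSeq gene table (Zm-B73-REFERENCE-NAM-5.0) served for names only.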

Additional observations from a re-analysis of the deposited data

How the results depend on the processing

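Over all settings, 239 log2 changes kept their direction and side of the threshold, 5 lost their call and 4 changed sign. GRMZM2G087766_T01 is included in these counts. Many of the 239 are comparisons with nucellus, where models with 0 to 2 nucellus reads could hardly change direction or call. Models that stay under the fold threshold also count as kept, whatever their p. The total of 239 therefore says little of robustness. The 48 counts of called models stayed within 1.5 times the reported ones, at 6089 to 10861 for embryo sac against nucellus, 4642 to 6563 after pollination and 9098 to 14668 for pollinated embryo sac against nucellus. The 4 were all EBE-1 after pollination, which went from 0.15 to -0.02 with library totals and to -0.02 in each of the 3 limma fits on RPKM, none of them called. EBE-2 (GRMZM2G167733_T02) after pollination was under the fold threshold from the start, so a loss of its small p is not counted here. Its change was -0.56 in the 3 limma fits. The limma adjusted p was 0.0511 with 1 added to RPKM, 0.625 with 0.1 added, and 0.0909 with 1 added and no filter. The limma SE was 0.83 with 0.1 added and 0.20 with 1 added. It pools the spread of all 3 tissues, nucellus at 0.627 and 0 RPKM included. In edgeR the change of GRMZM2G167733_T02 after pollination ran from -0.46 to -0.31 on leaving out 1 library. Summing reads over the gene gave -0.39 in place of the -1.85 of the lesser EBE-2 model (GRMZM2G167733_T01), but that sum is nearly all GRMZM2G167733_T02 and does not measure the lesser model. Its share within the gene, at -1.45, ranged from -1.71 to -1.17 on leaving out 1 library, where 3 of the 6 fits lost the call, and lost it with no filter (-1.45). That model rests on 14 reads after pollination. Where nucellus had 0 to 2 reads the fitted change is unstable: for EBE-2 (GRMZM2G167733_T02) it ran from 11.43 to 14.93 on leaving out 1 library. Higher calls were 58.8% of all calls for embryo sac against nucellus with TMM and 28.9% with library totals, and 49.4% and 26.2% for pollinated embryo sac against nucellus. Libraries with the same replicate number did not deviate together over all tested models (correlations -0.0194 to 0.0164). A shared batch that touched few models would not show in these correlations. The replicate block changed no call of the 4 members: after pollination it gave -1.84 for the lesser EBE-2 model, -0.39 for EBE-2, 0.15 for EBE-1 and -0.77 for di-SUMO-like, with 7300, 5959 and 10296 called models against 7433, 6092 and 10401 without it.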

Other observations

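Some SUMO genes are described under other names and were added after their values were seen. A protease described as ESD4-like (GRMZM2G010505_T01), of the family that removes SUMO, had 173 and 187 reads in nucellus, 69 and 73 in embryo sac and 23 and 44 after pollination. Its log2 change was -1.26 ± 0.22 for pollinated embryo sac against nucellus (edgeR adjusted p of 1.69e-07), and it stood at -0.62 ± 0.19 for embryo sac against nucellus. Models described as SMT3, the yeast name of SUMO, had few reads. The one with the most reads in embryo sac, GRMZM2G305196_T01, had 9 and 4 there, 0 and 1 in nucellus and 1 and 5 after pollination, and was not tested.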
